A study of Mus musculus with 16 samples.

Results

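The genes described here are the cytosolic ribosomal protein genes as measured in single cells of the mouse colon. They were chosen by symbol: every gene that begins with Rpl or Rps and a digit, with Rpsa, Rplp0, Rplp1 and Rplp2, and without pseudogene symbols and the S6 kinases. Of the 16039 genes in the deposited matrix, 85 met this rule. They comprised 43 genes of the large subunit, 31 of the small subunit, 3 of the stalk (Rplp0, Rplp1 and Rplp2), 7 paralogs (Rpl3l, Rpl7l1, Rpl22l1, Rpl36al, Rpl39l, Rps27l and Rps27rt) and 1 gene that is no subunit (Rps19bp1, which encodes a protein that binds RPS19). The libraries came from 16 female C57Bl/6J mice, 7 weeks old, whose transverse colon was taken, and each mouse was 1 library and 1 replicate. Mice given 4% dextran sulfate sodium (DSS) in their drinking water, which injures the colonic epithelium, were dosed on day 4 with 10 mg/kg of either SZN-1326-p, an activator of Wnt signalling, or an anti-GFP antibody as the control. Colons were taken 24 h after dosing (day 5) from 3 SZN-1326-p mice, 3 anti-GFP mice and 2 uninjured mice, and 48 h after dosing (day 6) from the same numbers. SZN-1326-p and anti-GFP mice both carried DSS injury, and the uninjured mice received neither DSS nor an antibody.

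Each cytosolic ribosome joins a small subunit, which reads the mRNA, to a large subunit, which forms the peptide bonds, and the stalk proteins recruit the translation factors. Nearly all subunit proteins are needed in equal numbers, and their mRNAs are among the most abundant of growing cells. In vertebrates these mRNAs carry a terminal oligopyrimidine (TOP) tract, a cytosine followed by an unbroken run of C and T at the 5' end, through which mTOR signalling and LARP1 set their translation. In the colonic crypt, stem and transit-amplifying cells divide and then mature into absorptive and goblet cells, which reach the surface and are shed.

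The starts of 10 members named in the results below are shown, and no expression comparison used these sequences. Each line gives 25 bases before and 25 from the annotated transcription start in RefSeq (GRCm38.p6), on the gene's own strand, with the longest run of C and T of at least 5 bases that touches the 15 bases either side of the start in capitals. Where runs tied in length, only the first was put in capitals, as in Rps27rt and Rps27l. The first 4 are subunit genes with large differences under SZN-1326-p, Rps6 is the substrate of the S6 kinases, and the others are the Rps27 family and 2 further paralogs.
Rps18, chr17:33955641-33955690, minus strand: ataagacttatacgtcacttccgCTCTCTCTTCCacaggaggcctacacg
Rpl12, chr2:32961687-32961736, plus strand: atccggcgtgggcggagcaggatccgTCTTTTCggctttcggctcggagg
Rps2, chr17:24720038-24720087, plus strand: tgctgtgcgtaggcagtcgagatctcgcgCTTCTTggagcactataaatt
Rpsa, chr9:120127741-120127790, plus strand: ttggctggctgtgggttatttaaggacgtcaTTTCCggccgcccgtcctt
Rps6, chr4:86857343-86857392, minus strand: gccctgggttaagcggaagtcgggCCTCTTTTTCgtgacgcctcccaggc
Rps27, chr3:90213624-90213673, minus strand: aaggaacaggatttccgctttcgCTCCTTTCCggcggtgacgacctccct
Rps27rt, chr9:114982715-114982764, minus strand: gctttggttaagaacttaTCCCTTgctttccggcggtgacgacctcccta
Rps27l, chr9:66946061-66946110, plus strand: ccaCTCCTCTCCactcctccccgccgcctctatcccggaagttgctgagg
Rpl22l1, chr3:28805483-28805532, plus strand: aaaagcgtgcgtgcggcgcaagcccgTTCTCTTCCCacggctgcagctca
Rpl7l1, chr17:46782632-46782681, minus strand: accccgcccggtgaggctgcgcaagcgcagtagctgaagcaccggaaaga
Of the 85 members, 65 had a start in the RefSeq table, and 51 of these (78.5%) held such a run, against 55.9% of all 27025 genes in the table. The median of the longest run was 7 bases in the members and 5 bases in all genes. In the starts shown, the run was 11 bases in Rps18, 10 in Rps6 and in Rpl22l1, and 9 in Rps27, and Rpl7l1 held none of at least 5 bases. A run near an annotated start is a description of these letters and was not matched to the first base of the mRNA.

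Several members share sequence with other genes, which limits how their reads could be assigned. Over the last 250 bases of the transcript, where this 3' chemistry reads, 43 of 85 members had at least 1 other annotated gene with a match of 150 bases or more at 97% identity or higher. Rps2 had 30 such genes, Rpl7a 27 and Rps12 20, while 42 members had none, among them Rpl12, Rpsa, Rpl7l1, Rps27l and Rpl9. Rps27 and the near-identical Rps27rt matched each other, and the Rps27rt UMIs came to between 1.98 and 3.32 per 100 Rps27 UMIs in every library, so the Rps27rt values are uncertain.

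The 16 libraries held 936 to 2033 cells and 9616512 to 21335421 UMIs each, 10.8% to 26.6% of them mitochondrial, and 20.5% to 73.3% of cells were epithelial. A UMI (unique molecular identifier) count is the number of distinct mRNA molecules captured. In 4 libraries taken at 24 h, genes of the top length tertile stood high against those of the bottom tertile: SZN-1326-p mouse 1, anti-GFP mice 1 and 2 and uninjured mouse 1. In epithelial cells this long-minus-short difference was 0.26 to 0.62 on the log2 scale in those 4 and -0.37 to 0.16 in the other 12. Ribosomal protein mRNAs are short, and their values were low in the same 4 libraries, so medians of the members at 24 h are given with and without them. The arms also differed in this measure at 48 h: in epithelial cells it was -0.14, -0.35 and -0.11 in SZN-1326-p mice, -0.05, -0.03 and 0.16 in anti-GFP mice and -0.25 and -0.22 in uninjured mice. Every SZN-1326-p mouse lay below every anti-GFP mouse at 48 h in epithelial, progenitor, TA2, fibroblast and myeloid cells. The measure leaves out ribosomal protein and mitochondrial genes. In the 22717 cells, 64 barcode sequences occurred in more than 1 library.

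The share of a library's non-mitochondrial UMIs that came from the 85 genes (the ribosomal protein share) was 9.77%, 14.8% and 12.1% in the SZN-1326-p mice at 24 h, 8.09%, 8.13% and 13.3% in the anti-GFP mice at 24 h and 7.63% and 10.9% in the uninjured mice at 24 h. At 48 h it was 15.3%, 17.3% and 16.6% in SZN-1326-p mice, 13.1%, 12.8% and 13.1% in anti-GFP mice and 11.7% and 12.2% in uninjured mice. At 48 h the 3 SZN-1326-p libraries lay above all the others of that time. At 24 h the arms overlapped, and the lowest value of each arm belonged to a library of the long-transcript set. The share is a sum over the chosen genes and was given no test.

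Among cell types of the authors' annotation, the share varied over a wide range. Of 46 annotated types, 38 had a mouse with at least 20 cells. The median over mice was 34.6% in IgM B cells (Bcell2_IgM, 2 mice), 26.3% in CD8 T and NK cells (TcellCD8_NK), 22% in stem cells and 21.7% in dendritic cells. It was 18.6% in enterocyte precursors (EnteroPrecur), 17.3% in the transit-amplifying type TA2, 11.5% in the transit-amplifying type TA1 and 11.1% in immature enterocytes (ImmEntero1). At the low end, the immature enterocyte type ImmEntero2 had 5.00% and AltEnterocyte 4.40%. Neutrophils (ActNeutrophil) had 3.75%, enterocytes 3.43% and Goblet1 cells 3.33%. Among mice the stem cell share ran from 15.6% to 25.7% (11 mice) and lay above the median of every mature epithelial type, whereas neighbours in the order such as TA1 and ImmEntero1 differed by less than their spread over mice.

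**Figure D1:**
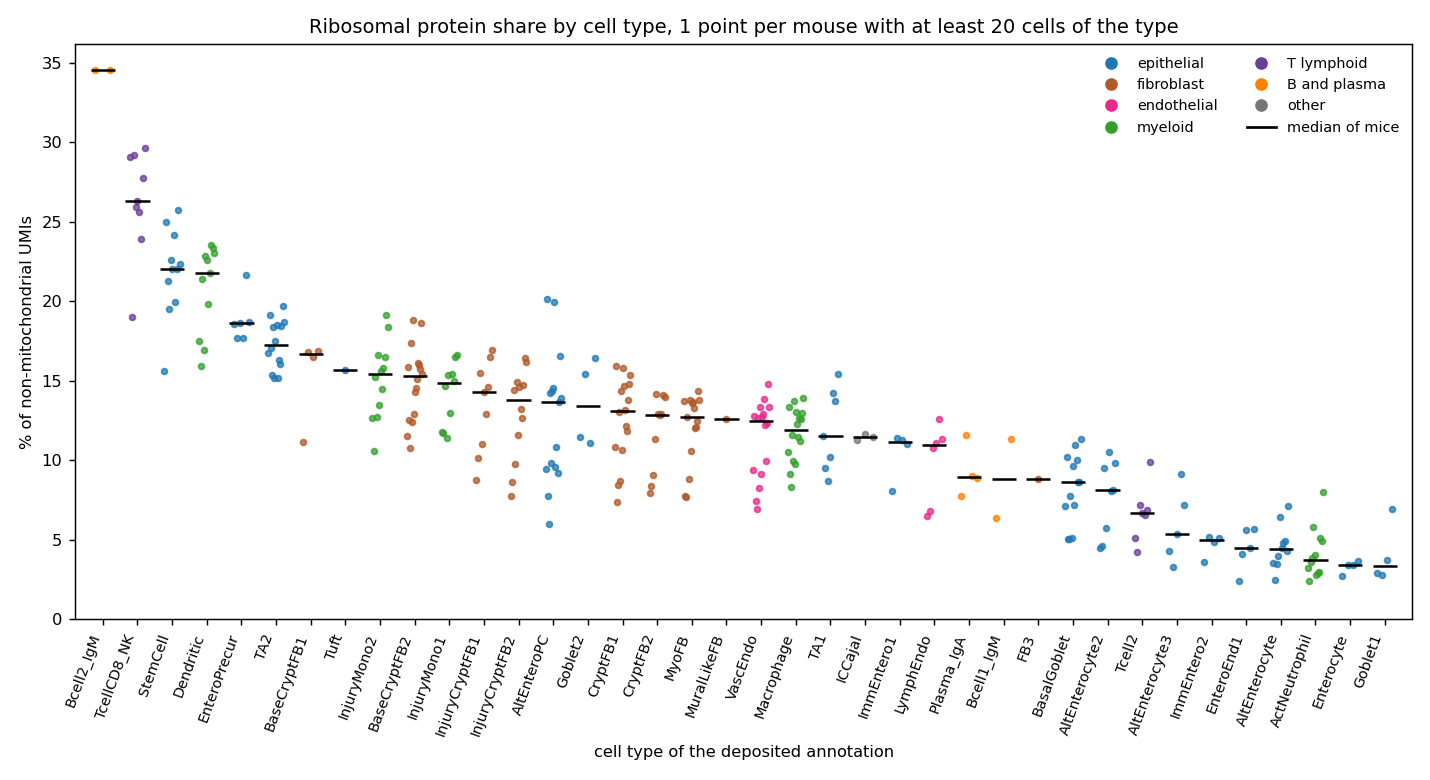
Ribosomal protein share of non-mitochondrial UMIs (vertical axis, percent) by cell type of the deposited annotation (horizontal axis), 1 point per mouse with at least 20 cells of the type, coloured by cell class. Bcell2_IgM, TcellCD8_NK and stem cells stand at the high end, and enterocytes, Goblet1 cells and neutrophils at the low end.

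Nearly all ribosomal protein genes were higher in crypt progenitors, taken as a class, than in other epithelial cells of the same mice. The progenitor class held stem, TA1 and TA2 cells, and EnteroPrecur and AltEnteroPC cells counted as other epithelial cells. Over pooled cells the ribosomal protein share was 18.5% in EnteroPrecur, 17.6% in TA2 and 10.8% in TA1 cells. It was 12.6% in Goblet2 and 12.3% in AltEnteroPC cells, so TA1 cells lay below some types of the other class. The class result was not tested for each type alone. With stem and transit-amplifying types as progenitors and the mouse as a term in the fit, 79 of 84 members tested were higher in progenitors and 0 were lower (limma, adjusted p below 0.05), against 14.1% of all 14623 genes higher and 24.7% lower. The median change of the members was 0.61 on the log2 scale and that of all genes -0.09, and all 84 members lay above 0. These are log2 changes of the mean normalized UMIs per cell (counts divided by the authors' size factor of each cell) plus 0.01.

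Rps2, a small subunit protein at the mRNA entry side, averaged between 14.4 and 36.5 normalized UMIs per cell in progenitors (median 27.5, n = 16 mice), against 5.59 to 32.2 (median 12.0) in other epithelial cells. Its log2 change was 1.02 ± 0.09 (SE; limma adjusted p = 3.08e-18), the largest of the members. Rps21 of the small subunit ran from 9.95 to 37.2 (median 24.8) in progenitors and from 5.57 to 32.1 (median 11.9) in other epithelial cells, a log2 change of 0.98. The ranges over mice overlapped for both genes, since mice differed in both classes together. Rpl27a changed by 0.97, the stalk protein gene Rplp2 by 0.96 ± 0.07, Rpl12, which sits at the stalk base, by 0.92, Rpl3 of the peptidyl transferase region by 0.91 and Rpsa by 0.90. The other stalk genes Rplp0 and Rplp1 changed by 0.56 and 0.47 and Rps14 by 0.24, all past the test.

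The 5 members without a call were Rpl41, Rpl3l, Rps27, Rps27rt and Rps19bp1, named after their values were seen. Rpl41, which encodes the smallest protein of the ribosome, ran from 7.22 to 23.8 (median 16.7) in progenitors and from 7.93 to 23.5 (median 15.4) in other epithelial cells, a log2 difference of 0.07 ± 0.06 (limma adjusted p = 0.384). Rps27 differed by 0.16 ± 0.08 (limma adjusted p = 0.0918), whereas its paralog Rps27l was higher in progenitors by 0.43 ± 0.11 (limma adjusted p = 0.000965). Of the wider pathway, 33 of 39 ribosome biogenesis genes were higher in progenitors and 2 lower, led by Dkc1, the pseudouridine synthase of rRNA, at 1.85. A further list of 18 genes with TOP mRNAs held mostly translation factors, but also others such as Nap1l1, Hnrnpa1 and Tpt1. Of these 18 listed TOP genes 15 were higher and 1 lower, led by Nap1l1 at 1.86. Myc, which drives ribosome synthesis, was higher by 1.75 ± 0.31. Rack1, a small subunit scaffold whose symbol falls outside the rule, was higher by 0.81, and Fau, whose product is cleaved to the small subunit protein RPS30, was lower by 0.31 (log2 -0.31). The authors' types were made from the expression of the same cells, so the members may have helped to define the classes that are compared. Total normalized UMIs per cell also differed, with medians of 10957 in progenitors and 12708 in other epithelial cells, and scaling without ribosomal protein and mitochondrial genes gave 83 calls.

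In epithelial cells, ribosomal protein genes stood higher in SZN-1326-p mice than in anti-GFP mice 48 h after dosing, and 8 passed the test: Rps18, Rpl12, Rps2, Rpl13, Rps27a, Rpl10a, Rpsa and Rpl18. That is 8 of 83 members tested (9.64%), against 2.41% of all 10795 genes tested, and 0 members were lower, against 10.1% of all genes. The median log2 change was 0.71 for the members and -0.11 for all genes, 82 of 83 members lay above 0 and 55 (66.3%) had an unadjusted p below 0.05, against 28.1% of all genes. With the long-minus-short difference of each library as a covariate, a fit added after seeing the data, the median of the members was 0.46 and 40 were called higher. In 71 of 83 members (85.5%) every SZN-1326-p mouse lay above every anti-GFP mouse at 48 h, against 12.7% of all genes, and in 0 did every one lie below, against 24.3%. The epithelial ribosomal protein share was 16.1%, 19.3% and 17.0% in SZN-1326-p mice, against 9.83%, 11.2% and 9.95% in anti-GFP mice and 10.2% and 11.2% in uninjured mice.

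**Figure D2:**
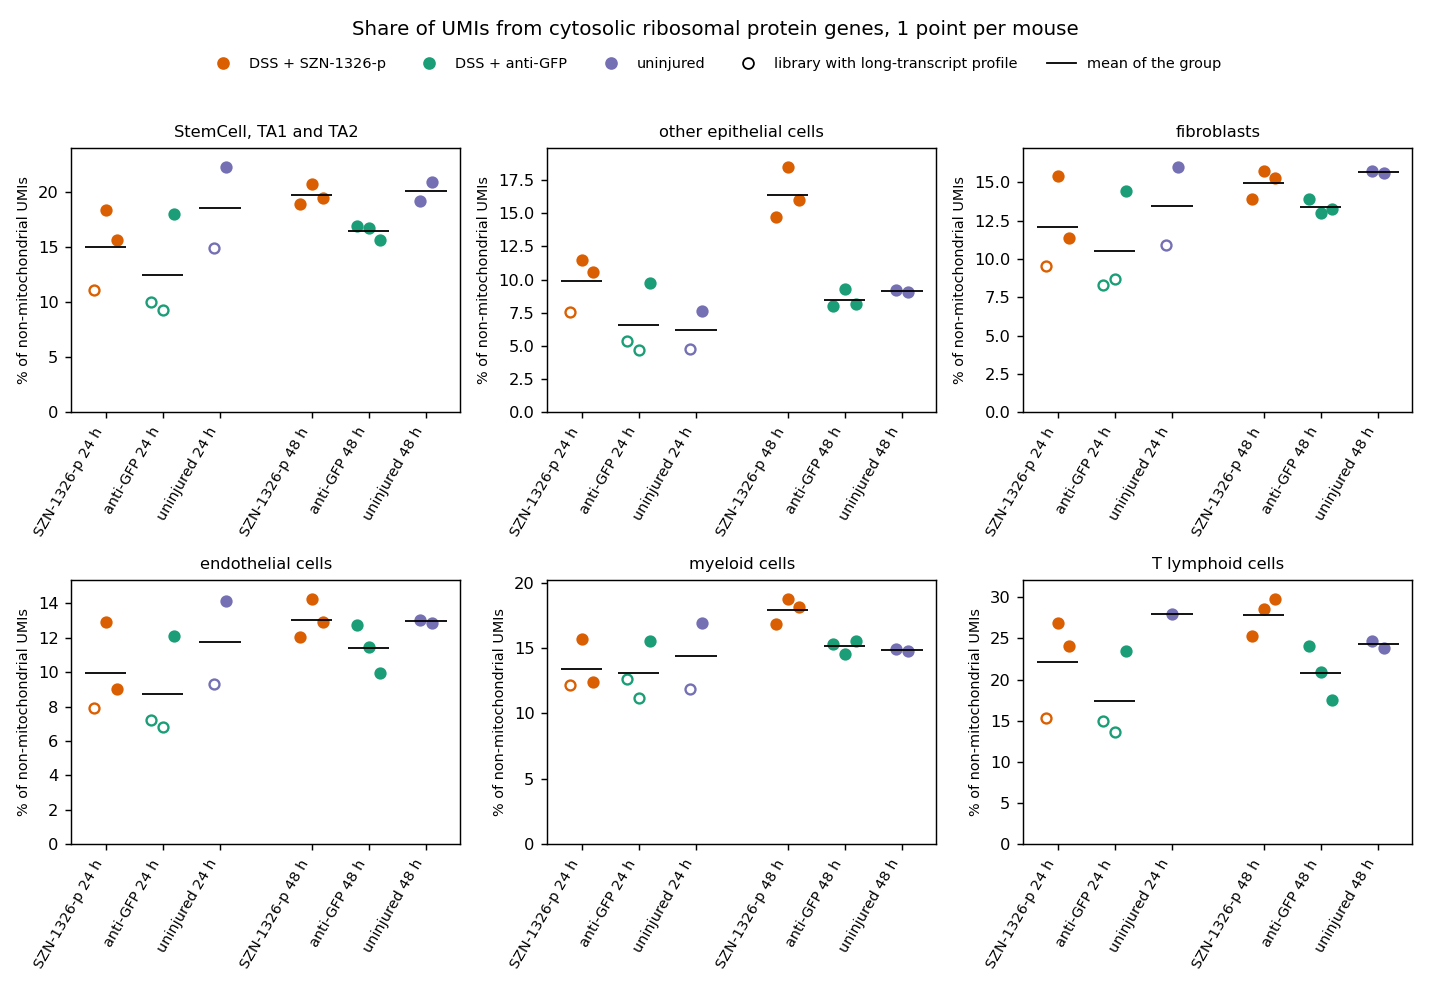
Ribosomal protein share of non-mitochondrial UMIs (vertical axes, percent) by arm and time (horizontal axes) in each cell class, 1 point per mouse, with open points for the 4 libraries of the long-transcript set. In epithelial cells other than progenitors at 48 h the 3 SZN-1326-p mice sit between 14.7% and 18.5%, above the anti-GFP mice at 7.98% to 9.26%.

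Rps18, a small subunit head protein, averaged 26.2, 32.6 and 28.1 normalized UMIs per epithelial cell in SZN-1326-p mice at 48 h, against 14.6, 15.1 and 11.9 in anti-GFP mice and 16 and 17.8 in uninjured mice. The SZN-1326-p mice lay above both other arms, and the log2 change against anti-GFP was 1.06 ± 0.34 (limma adjusted p = 0.0491). Rpl12 had 12.7, 14.9 and 13.5 in SZN-1326-p mice and 6.72, 7.59 and 5.66 in anti-GFP mice, a log2 change of 1.05 ± 0.31 (limma adjusted p = 0.0361), with 8.28 and 8.75 in uninjured mice. Rpsa, a small subunit protein also known as the laminin receptor, had 24.3, 30.1 and 25.7 in SZN-1326-p mice and 13.8, 15.3 and 12.6 in anti-GFP mice, a log2 change of 0.94 ± 0.27 (limma adjusted p = 0.0268). None of these 3 genes had overlapping arms at 48 h.

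Rps2 had 27.5, 33.9 and 28.5 in SZN-1326-p mice and 14.5, 18.3 and 13.1 in anti-GFP mice (log2 0.97). Rpl13 of the large subunit had 32.9, 36.6 and 33.5 against 18.7, 19.1 and 15.4 in anti-GFP mice (log2 0.96). Rps27a, made as a fusion with ubiquitin, had 19.3, 24.4 and 22.4 against 11.8, 12.0 and 10.2 in anti-GFP mice (log2 0.96). Rpl10a, of the L1 stalk, changed by 0.95 and Rpl18 of the large subunit by 0.89, again with no overlap between the arms at 48 h.

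Other members of known function lay on the same side without passing. Rpl5 and Rpl11, which with 5S rRNA bind and restrain Mdm2, differed by 0.78 ± 0.29 and 0.87 ± 0.28 (limma adjusted p = 0.0879 and 0.0523). Rps6 had 10.2, 12.2 and 11.4 in SZN-1326-p mice and 6.03, 6.79 and 5.79 in anti-GFP mice, a log2 difference of 0.86 ± 0.28 (limma adjusted p = 0.0534). The stalk genes Rplp0, Rplp1 and Rplp2 differed by 0.90, 0.61 and 0.62, Rpl3 by 0.91, Rps4x of the X chromosome by 0.84, and Rps14 and Rps19, whose loss causes anaemia in humans, by 0.67 and 0.77. At the far low side, Rpl41 had 16, 23.6 and 15.9 in SZN-1326-p mice and 19.8, 17.0 and 15.0 in anti-GFP mice (log2 0.08 ± 0.32, limma adjusted p = 0.894), and Rps27 had 10.7, 16 and 9.71 against 11.2, 9.41 and 9.37 in anti-GFP mice (log2 0.25 ± 0.41). Both of these genes overlapped between the arms. The paralogs Rpl22l1, Rps27l and Rpl7l1 differed by 0.53, 0.38 and 0.41, none past the test.

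**Figure D3:**
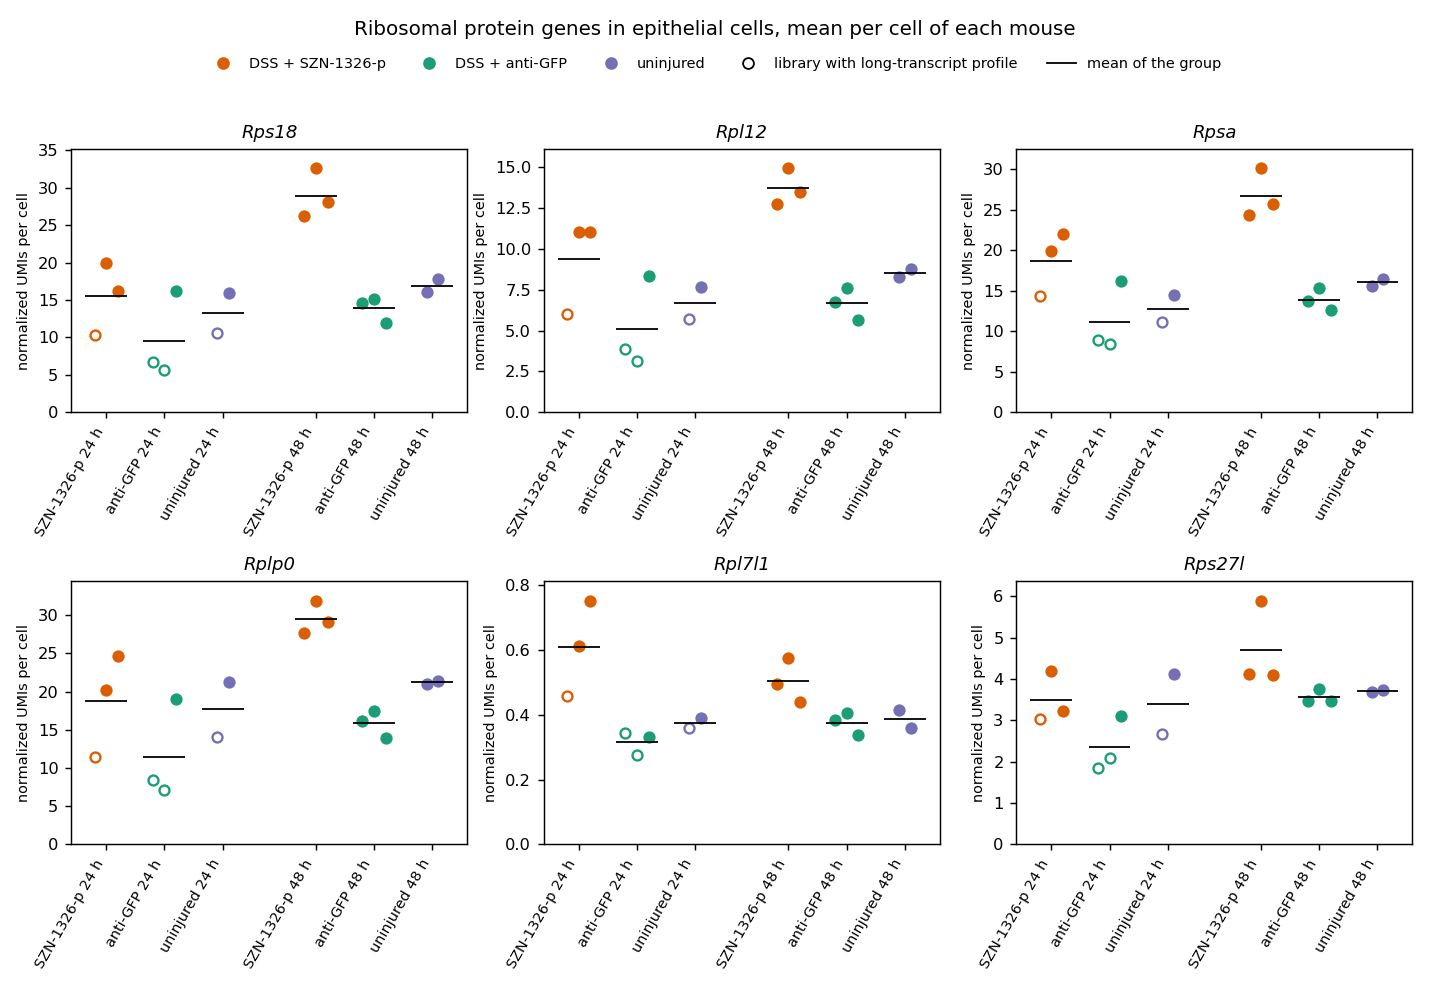
Mean normalized UMIs per epithelial cell (vertical axes) of selected ribosomal protein genes by arm and time (horizontal axes), 1 point per mouse, open points marking the 4 libraries of the long-transcript set. Rps18 in SZN-1326-p mice at 48 h sits between 26.2 and 32.6, above the anti-GFP mice at 11.9 to 15.1.

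The number past the test moved strongly with the samples in the fit. With only the 2 groups compared, 66 members were called higher at 48 h, and 64 were called without the 4 libraries of the long-transcript set, which are 24 h libraries and enter only through the spread. Leaving out any of the 3 SZN-1326-p mice at 48 h, or anti-GFP mouse 1 or 3 at 48 h, gave 0 calls, and leaving out anti-GFP mouse 2 at 48 h or either uninjured mouse at 48 h gave 1. Leaving out a 24 h mouse gave 4 (anti-GFP mouse 1), 13 (anti-GFP mouse 2), 40 (anti-GFP mouse 3) or 18 (SZN-1326-p mouse 1).

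Within parts of the epithelium the difference in share at 48 h ranged from 3.11 percentage points in TA2 cells and 3.25 in progenitors to 7.93 in epithelial cells other than progenitors, against 7.15 in the whole class. In progenitors alone the share was 18.9%, 20.7% and 19.4% in SZN-1326-p mice and 16.9%, 16.7% and 15.7% in anti-GFP mice, and in TA2 cells it was 18.4%, 19.7% and 18.7% against 15.1%, 16.3% and 16.1% in anti-GFP mice. In other epithelial cells it was 14.7%, 18.5% and 16% in SZN-1326-p mice and 7.98%, 9.26% and 8.17% in anti-GFP mice, and in AltEnteroPC cells 13.7%, 16.6% and 13.9% against 9.55%, 10.9% and 9.22%. The arms did not overlap in any of these 4 populations. No member passed in progenitors alone (median log2 change 0.31) or in TA2 cells alone (0.25). The long-minus-short difference in progenitors was -0.24, -0.38 and -0.18 in SZN-1326-p mice and 0.03, 0.02 and 0.27 in anti-GFP mice at 48 h, and its part in these 2 values was not tested. Progenitors made up 32.5%, 39.6% and 28.7% of epithelial cells in SZN-1326-p mice at 48 h and 27.7%, 31.3% and 29.7% in anti-GFP mice, with overlapping arms. The part of cell makeup in the difference of the whole epithelial class was not tested. Markers of other lineages were low in the epithelial class, where those of fibroblasts, for example, made up at most 0.0178% of UMIs in any mouse at 48 h. Neutrophil markers reached 0.0325% in SZN-1326-p mice and 0.224% in anti-GFP mice at 48 h, and their part in the result was not tested.

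At 24 h the same comparison called 2 members higher, neither of them a ribosome subunit of the core set, and 0 lower, against 5.89% of all genes higher and 4.25% lower. Rpl7l1, a paralog of Rpl7, had 0.459, 0.613 and 0.753 normalized UMIs per epithelial cell in SZN-1326-p mice and 0.342, 0.276 and 0.332 in anti-GFP mice, with no overlap (log2 0.90 ± 0.18, limma adjusted p = 0.00703). Rps19bp1 had 0.223, 0.326 and 0.311 in SZN-1326-p mice and 0.151, 0.148 and 0.218 in anti-GFP mice (log2 0.70 ± 0.21, limma adjusted p = 0.044). These were also the only 2 of 83 members (2.41%) in which every SZN-1326-p mouse lay above every anti-GFP mouse at 24 h, against 11% of all genes, and 0 had every one below, against 13.3%.

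The core subunits overlapped between the arms at 24 h, mainly through anti-GFP mouse 3, which lay high, and SZN-1326-p mouse 1, which lay low. Rps18 had 10.3, 20.0 and 16.2 in SZN-1326-p mice and 6.65, 5.62 and 16.2 in anti-GFP mice (log2 0.82 ± 0.34, limma adjusted p = 0.132). Rpl12 had 6.03, 11 and 11 in SZN-1326-p mice and 3.89, 3.11 and 8.32 in anti-GFP mice (log2 0.95 ± 0.31, limma adjusted p = 0.0617). Over all members the median log2 change was 0.60, with 82 of 83 above 0 and 34 (41.0%) with an unadjusted p below 0.05, against 26.8% of all genes. With the long-minus-short difference as a covariate the median was 0.16, and 2 members were called. Without anti-GFP mouse 3 the count was 64 and without SZN-1326-p mouse 1 it was 30. It was 1 without any of 10 other mice: anti-GFP mice 1 and 2 and SZN-1326-p mice 2 and 3 at 24 h, and anti-GFP mouse 2, each uninjured and each SZN-1326-p mouse at 48 h. Without the 4 long-transcript libraries it was 0 and the median was 0.09, a fit that leaves 1 anti-GFP mouse at 24 h, assumed to vary like the other groups. In TA2 cells alone the median was -0.05, again with 1 anti-GFP mouse at 24 h (mouse 3), the only one of that arm with at least 20 such cells. Progenitors made up 51.2%, 45.5% and 40.4% of epithelial cells in SZN-1326-p mice at 24 h and 27.5%, 22.5% and 30.0% in anti-GFP mice, and the part of this difference in the result was not tested.

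The change at 48 h did not differ from that at 24 h for any member by the test of the difference itself, which called 0 members higher or lower, against 0.00926% and 0.13% of all genes, and gave 1 member an unadjusted p below 0.05. For Rpl7l1 the difference was -0.49 (limma adjusted p = 0.594) and for Rps19bp1 -0.71 (limma adjusted p = 0.472).

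Genes of ribosome production outside the members were also called at 24 h, where 5.89% of all genes were higher. The gene lists below were counted in the main fit only, with the long-transcript libraries in it. At 24 h these were anti-GFP mice 1 and 2 and SZN-1326-p mouse 1, besides uninjured mouse 1. Progenitors were also a larger part of the SZN-1326-p epithelium at 24 h. The part of both in these calls was not tested. Of 39 ribosome biogenesis genes 27 were higher in SZN-1326-p epithelium and 0 lower (median log2 0.87), led by Nhp2 of the H/ACA particles at 1.79, the ribosome assembly factor Mrto4 at 1.43 and Rrp1b at 1.32. Of 77 mitochondrial ribosomal protein genes, which build a separate ribosome, 24 were higher and 0 lower, led by Mrpl38 at 1.07. Of the 18 listed TOP genes 4 were higher and 0 lower, among them Eef1d at 1.00, Nap1l1 at 0.86 and Eef1g at 0.77. Myc was higher by 1.45 ± 0.28 (limma adjusted p = 0.00649) and Eif4e, the cap-binding factor, by 0.57, as 2 of 13 regulators tested. At 48 h, 3 of 39 biogenesis genes were called higher, Nhp2 (1.00), Npm1 (0.93) and Fbl (0.70). So were 3 of the 18 listed TOP genes (Hnrnpa1 0.97, Eif3e 0.72 and Eif4b 0.51) and 7 of 77 mitochondrial ribosomal protein genes. At that time 0 of 13 regulators passed. Of 8 genes of p53 and nucleolar stress tested at 24 h, Gdf15 (1.37) and Trp53 (0.86) were higher and Cdkn1a, the cell cycle inhibitor p21, was lower (-0.81).

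In fibroblasts and myeloid cells no member passed under SZN-1326-p at either time. In fibroblasts limma called 0 of 83 members, with 0 at an unadjusted p below 0.05, at 24 h and at 48 h, against 0.009% of all genes higher at 24 h, and 0.072% higher and 0.018% lower at 48 h. The median log2 change of the members was 0.21 at 24 h and -0.17 there without the 4 long-transcript libraries, and it was 0.25 at 48 h. With the long-minus-short difference as a covariate it was -0.13 at 24 h and 0.11 at 48 h. In 41 of 83 members (49.4%) every SZN-1326-p mouse lay above every anti-GFP mouse at 48 h, against 10.7% of all genes, and in 0 did every one lie below, against 9.24%. At 24 h 0 of 83 members had every SZN-1326-p mouse above and 0 had every one below, against 3.34% and 4.54% of all genes. The fibroblast share was 13.9%, 15.7% and 15.3% in SZN-1326-p mice and 13.9%, 13.0% and 13.3% in anti-GFP mice at 48 h, a difference of 1.55 percentage points with an SD within groups of 0.75. In myeloid cells limma called 0 of 84 members, with 1 at an unadjusted p below 0.05 at 24 h and 16 at 48 h, against 0% of all genes at 24 h and 0.0182% higher at 48 h. The median was 0.15 at 24 h and -0.14 there without the 4 libraries, and it was 0.34 at 48 h, where 78 of 84 members lay above 0. With the covariate it was -0.10 at 24 h and 0.16 at 48 h. At 48 h in 58 members (69%) every SZN-1326-p mouse lay above every anti-GFP mouse, against 12.2% of all genes, and in 0 below, against 7.89%. At 24 h 0 of 84 had every SZN-1326-p mouse above and 1 (the rare Rpl3l, named after its values were seen) had every one below, against 6.17% and 4.21% of all genes.

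The myeloid share was 16.9%, 18.7% and 18.1% in SZN-1326-p mice and 15.3%, 14.5% and 15.5% in anti-GFP mice at 48 h. Neutrophils, which hold little ribosomal protein mRNA, made up 14.8%, 13.3% and 13.3% of myeloid cells in SZN-1326-p mice and 25.1%, 24.0% and 9.87% in anti-GFP mice at 48 h. Without neutrophils the share was 17.4%, 19.3% and 18.5% in SZN-1326-p mice and 16.8%, 15.7% and 16% in anti-GFP mice. Whether the epithelial change differed from that in the other classes was not tested.

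**Figure D4:**
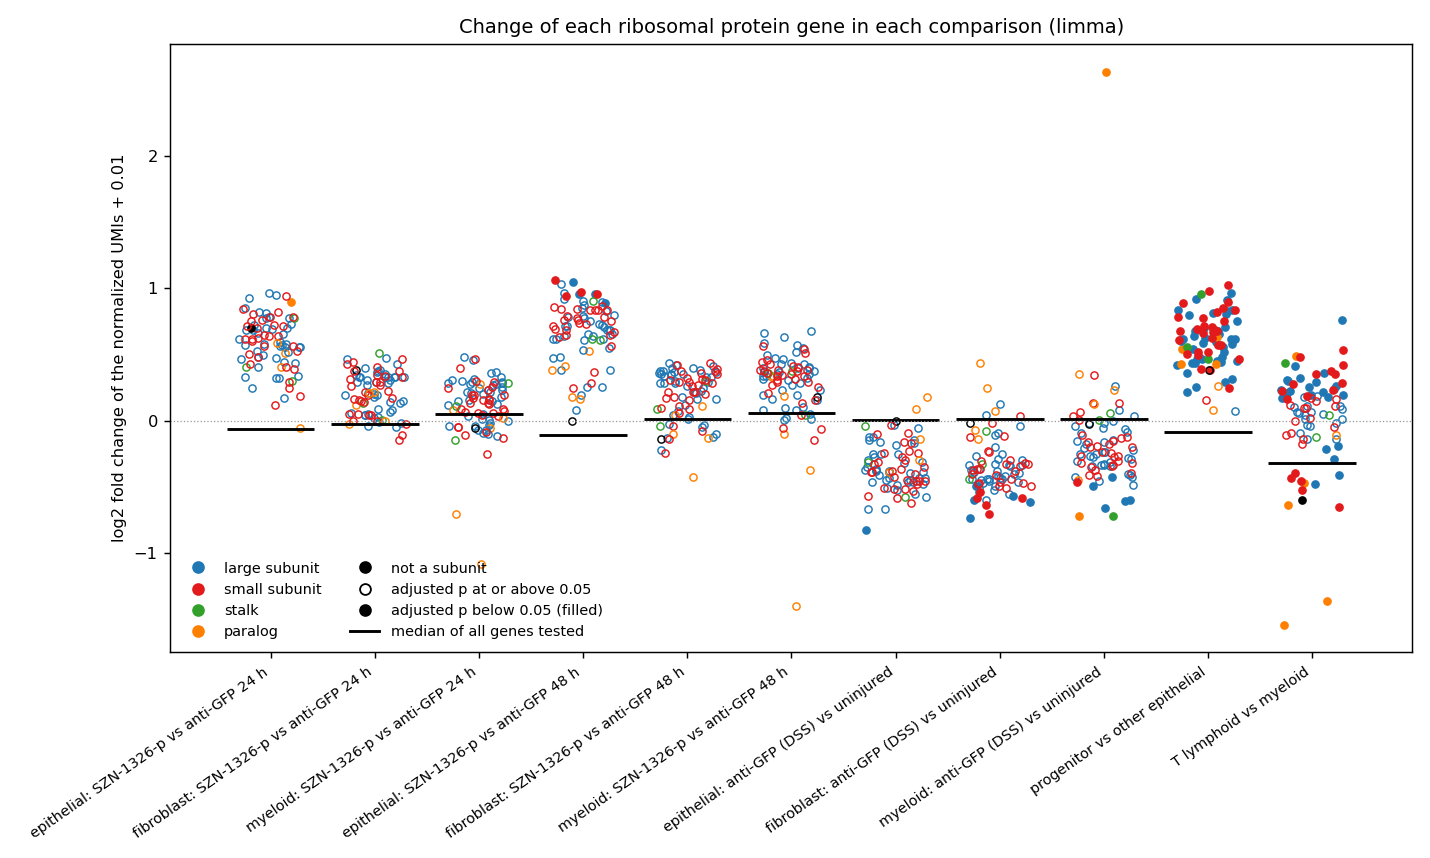
Log2 fold change of normalized UMIs plus 0.01 (vertical axis) of each ribosomal protein gene in each comparison (horizontal axis), 1 point per gene, filled where the limma adjusted p is below 0.05 and coloured by member group. In SZN-1326-p epithelium 82 of 83 genes lie above 0 at each time, and 79 of 84 are called higher in progenitors.

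DSS injury was followed by comparing anti-GFP mice with uninjured mice, as the mean over both times, and the anti-GFP mice of this comparison are those set against SZN-1326-p above. In fibroblasts 11 of 83 members (13.3%) were lower in anti-GFP mice and 0 higher, against 9.79% of all 11110 genes lower and 12.4% higher. This share is close to that of all genes. The median log2 change of the members was -0.38, and 77 lay below 0, and with the long-minus-short difference as a covariate the median was -0.11, with 8 members lower and 4 higher. InjuryCryptFB1 and InjuryCryptFB2 cells made up 30.6% to 42.8% of fibroblasts in anti-GFP mice and 0.658% to 4.98% in uninjured mice, so the class holds different cell types in each arm. In CryptFB1 cells alone 17 members were lower (median -0.47). Epithelial markers, 6 of 6 called lower, made up 0.00607% to 0.0233% of fibroblast UMIs in anti-GFP mice and 0.0355% to 0.0857% in uninjured mice. B and plasma cell markers (1 of 3 tested lower) made up 0.000745% to 0.00279% in anti-GFP mice and 0.00486% to 0.16% in uninjured mice, and neutrophil markers (1 of 1 tested higher) at most 0.00123% in either arm. The part of these in the result was not tested. Rps14 of the small subunit had 10.1, 9.67 and 16.5 normalized UMIs per cell in anti-GFP mice at 24 h and 16.6, 13.7 and 14.9 at 48 h, against 14.5 and 22.9 in uninjured mice at 24 h and 23.3 and 23.3 at 48 h. Its log2 change was -0.63 ± 0.19 (limma adjusted p = 0.0225), and the arms did not overlap apart from uninjured mouse 1 at 24 h.

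Also lower in fibroblasts were Rpl21 (-0.61), Rpl13 (-0.60), Rps24 (-0.59), Rps4x (-0.58), Rpl8 (-0.57), Rpl15 (-0.54), Rps3 (-0.54) and Rpl4 (-0.49). Rpl36al and Rpl41 lay farthest to the other side, at 0.44 (limma adjusted p = 0.161) and 0.13. Among the 18 listed TOP genes 0 were higher and 5 lower, led by Tpt1 at -0.78, while 8 of 39 ribosome biogenesis genes were higher and 1 lower. The fibroblast count was 35 without uninjured mouse 1 at 24 h, a long-transcript library, 0 without uninjured mouse 2 and 50 without anti-GFP mouse 3 at 24 h. It was 1 to 3 without either uninjured mouse at 48 h, anti-GFP mouse 1 or 2 at 24 h or anti-GFP mouse 2 at 48 h, 5 without anti-GFP mouse 3 at 48 h and 7 without any SZN-1326-p mouse of 48 h.

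In epithelial cells 1 of 83 members was lower under DSS and 0 higher, against 12.5% and 10.8% of all genes, and 10 members had an unadjusted p below 0.05. This was Rpl9 of the large subunit, with 5.77, 4.88 and 12.5 normalized UMIs per cell in anti-GFP mice at 24 h and 12.6, 11.1 and 10.1 at 48 h, against 10.9 and 17.9 in uninjured mice at 24 h and 18.6 and 17.3 at 48 h. Its log2 change was -0.83 ± 0.26 (limma adjusted p = 0.0312), and the arms overlapped through uninjured mouse 1 at 24 h. The median of the members was -0.38 and 81 of 83 lay below 0, but with totals that leave out ribosomal protein and mitochondrial genes it was -0.08 (0.21 for all genes) with 0 calls, and with the long-minus-short difference as a covariate it was 0.00, with 1 member lower and 3 higher. The mean epithelial share was 0.344 percentage points lower in anti-GFP mice (difference -0.344, SD within groups 1.93). The types enterocyte, Goblet1 and ImmEntero2, which had the low ribosomal protein shares, made up 0.22% to 5.87% of epithelial cells in mice with DSS and 28.6% to 47.4% in uninjured mice. In progenitors alone the share was 10.0%, 9.28% and 18.0% in anti-GFP mice at 24 h and 16.9%, 16.7% and 15.7% at 48 h, against 14.9% and 22.3% in uninjured mice at 24 h and 19.2% and 20.9% at 48 h. The epithelial count was 41 without anti-GFP mouse 3 at 24 h, 2 without uninjured mouse 1 of the 24 h arm, and 3 without SZN-1326-p mouse 1 at 24 h. It was 0 without any of 7 others: uninjured mouse 2 and anti-GFP mice 1 and 2 at 24 h, and anti-GFP mice 2 and 3 and both uninjured mice at 48 h. With a term for the 4 long-transcript libraries 36 members were called lower.

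In myeloid cells 8 of 84 members (9.52%) were lower under DSS and 1 was higher, against 12.6% and 18.6% of all 10981 genes. Macrophages made up 6.42% to 20.0% of myeloid cells in anti-GFP mice and 70.7% to 78.4% in uninjured mice, so this class too holds different cell types in each arm, and in macrophages alone 14 members were lower. With the long-minus-short difference as a covariate 5 members were lower and 3 higher. The stalk gene Rplp1 had 18.7, 16.7 and 27.6 normalized UMIs per cell in anti-GFP mice at 24 h and 24.7, 22.7 and 29.3 at 48 h, against 26.2 and 44.0 in uninjured mice at 24 h and 42 and 41.7 at 48 h (log2 -0.72 ± 0.19, limma adjusted p = 0.00442). Among cell types, Rplp1 had its highest share of ribosomal protein UMIs in macrophages (3.11%) and its lowest in InjuryMono1 cells (1.57%). Its stalk partners had other values, 0.06 ± 0.18 for Rplp2 (limma adjusted p = 0.84) and 0.00 ± 0.18 for Rplp0. Rpl7l1 had 0.327, 0.400 and 0.554 in anti-GFP mice at 24 h and 0.399, 0.481 and 0.457 at 48 h, against 0.977 and 0.638 in uninjured mice at 24 h and 0.648 and 0.653 at 48 h (log2 -0.72 ± 0.18, limma adjusted p = 0.00412), with no overlap. Rpl14, Rpl3, Rpl12, Rpl21, Rps4x and Rpl5 were lower by -0.66, -0.61, -0.60, -0.49, -0.46 and -0.43 on the log2 scale.

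The member called higher in DSS myeloid cells was Rpl3l, the paralog of Rpl3 known from striated muscle, at very low counts. It had 0.0640, 0.0635 and 0.0393 normalized UMIs per cell in anti-GFP mice at 24 h and 0.0834, 0.0353 and 0.0414 at 48 h, and 0 in all 4 uninjured mice. It passed the filter on low values only through mice with DSS, so its call depends on the filter and the added 0.01 and is given no fold or p. The whole series held 89 Rpl3l UMIs. Of these 16 (18.0%) lay in the 590 neutrophils, which were 2.60% of all cells. An Rpl3l UMI was seen in 2.54% of neutrophils (median 2359.5 UMIs per cell), against 0.285% of other cells (median 9026 UMIs) and 0.148% of macrophages (median 8109 UMIs). Of the neutrophils 256 came from SZN-1326-p mice, 332 from anti-GFP mice and 2 from uninjured mice, and without neutrophils Rpl3l was not called in myeloid cells. The count of lower members was 3 without neutrophils. It was 36 without uninjured mouse 1 at 24 h, 23 without anti-GFP mouse 3 at 24 h, 2 without uninjured mouse 2 of 24 h, and 5 without anti-GFP mouse 2 at 24 h, uninjured mouse 1 at 48 h or anti-GFP mouse 1 or 2 at 48 h. The count of higher members was 3 without uninjured mouse 2 at 24 h.

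T lymphoid cells were set against myeloid cells of the same mice as a comparison of immune classes. Of 84 members 33 were higher in T cells and 15 lower, against 13.7% and 39.8% of all 14623 genes, and the median log2 change was 0.11 for the members and -0.32 for all genes. Rpl12 ran from 9.20 to 39.8 normalized UMIs per cell in T cells (median 23.5, n = 15 mice) and from 7.45 to 17.5 in myeloid cells (median 11.7, n = 16 mice), a log2 change of 0.76 ± 0.09 (limma adjusted p = 6.19e-12). Rps15a (0.54), Rpl22l1 (0.49), Rps18 (0.48) and Rplp1 (0.44) were also higher. Rpl22, a protein that developing alpha-beta T cells of the mouse need, differed by 0.06 ± 0.07 (limma adjusted p = 0.5).

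Rps27l, a paralog of Rps27 that is a p53 target, ran from 0.327 to 1.64 in T cells (median 1.22) and from 2.10 to 3.80 in myeloid cells (median 2.82), with no overlap and a log2 change of -1.36 ± 0.11 (limma adjusted p = 7.11e-19). Rps9 of the small subunit ran from 12.4 to 37.2 in T cells (median 24.1) and from 24.6 to 46.2 in myeloid cells (median 36.7), a log2 change of -0.65 ± 0.08 (limma adjusted p = 1.89e-11). Rpl7l1 (-0.64) and Rps19bp1 (-0.60) were lower as well. The 15 calls include Rpl3l, which had no UMI in the T cells of any of the 15 mice and is given no fold. The authors' normalized totals had medians of 9298 per T cell and 10976 per myeloid cell, and with totals that leave out ribosomal protein and mitochondrial genes 76 members were higher and 2 lower, with a median of 0.73. On that scale the median of all genes moved to -0.06, and Rps9, Rps4x, Rplp0 and Rps19bp1 turned to the other side of 0, with values of 0.13, 0.56, 0.49 and 0.13.

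Members also differed in how much of the ribosomal protein pool they made up. For each of the 77 subunit and stalk genes, the share of the ribosomal protein UMIs was averaged over mice in each of 33 cell types with at least 3 mice. The ratio of the highest type to the lowest had a median of 2.03 and ran from 1.44 (Rpl38) to 4.81 (Rps9), with 36 genes below 2 and 7 above 3. Rps9 made up 1.25% of ribosomal protein UMIs in enterocytes and 6.02% in neutrophils. Rps27 made up 0.683% in TA1 cells and 2.85% in neutrophils, and Rpl12 0.424% in ImmEntero2 cells and 1.52% in CD8 T and NK cells. Types of 1 lineage fell on opposite sides for some genes: Rps21 was at 0.652% in enterocytes and 2.47% in TA1 cells, while Rpl17 was at 2.90% in enterocytes and 0.817% in TA1 cells. These ranges were picked from many types and were not tested.

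Several paralogs had larger ratios, but Rpl22l1 and Rpl36al lay within the range of the subunit genes, which reached 4.81 (Rps9). Some paralogs had few UMIs in all, such as 12658 for Rpl7l1 and 36301 for Rpl36al. The part of low counts in these ratios was not tested. Rps27l made up 0.0717% in CD8 T and NK cells and 0.746% in AltEnterocyte cells, a ratio of 10.4, and Rpl22l1 0.191% in InjuryMono1 cells and 0.649% in EnteroEnd1 cells, a ratio of 3.40. Rpl36al was lowest in BaseCryptFB1 cells (0.0802%) and highest in IgA plasma cells (0.316%). Rpl7l1 was lowest in CD8 T and NK cells (0.0218%) and highest in ICCajal cells (0.115%), a ratio of 5.29. Rpl39l, known from mouse testis, had 29 UMIs in all and was not tested.

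**Figure D5:**
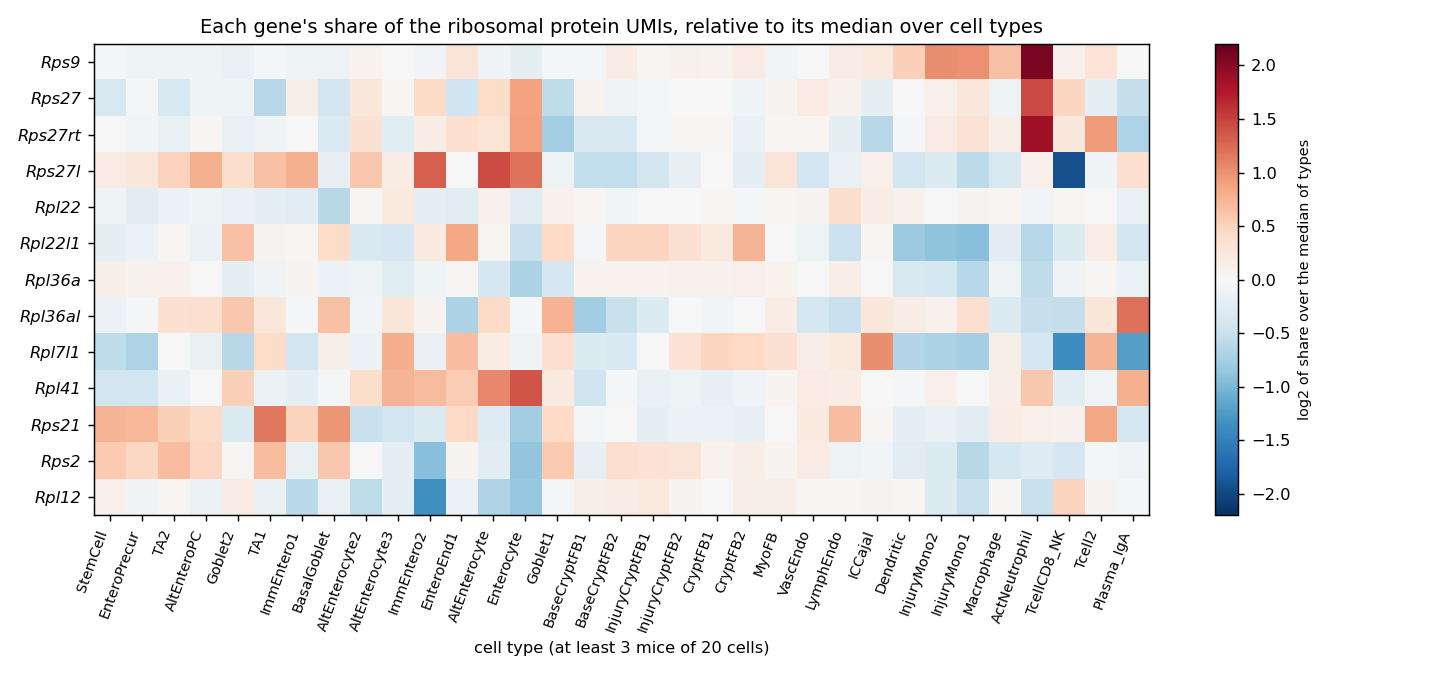
Share of the ribosomal protein UMIs taken by each shown gene (rows) in each cell type with at least 3 mice of 20 cells (columns), as log2 of the share over its median of types (colour). Rps9 and Rps27 stand high in neutrophils (6.02% and 2.85% of ribosomal protein UMIs), and Rps27l stands low in CD8 T and NK cells (0.0717%).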

How the data were processed

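Per the submitters' processing notes, reads were processed with Cell Ranger 3.0.2 on the mm10 build, and other steps of the authors are not given in the sources used here. The deposited matrix holds log2 values, of the UMIs over each cell's size factor with 1 added, as the values themselves show: undoing the logarithm gave whole UMIs for 100% of 60867816 entries (relative tolerance 1e-06), 996 to 59845 per cell. The deposited annotation columns hold other values, text labels for the mouse, group and cell type. Its name SWAP was taken as SZN-1326-p, the treated arm of the sample titles. How doublets were treated is not given in the sources used here, and no cells were removed.

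For each mouse and cell class with at least 20 cells, normalized UMIs were averaged over cells. Genes with a mean of at least 0.05 in at least 2 mice were tested as log2(mean + 0.01) with limma 3.58.1 (trend, robust) in R 4.3.3, all 16 mice in 1 fit of 6 groups, Benjamini-Hochberg over all genes tested, threshold 0.05. Classes were compared in 1 fit with the mouse as a term. The fit was tested on simulated data. Shares used Python 3.11.15 and pandas 2.3.3. The planned test for raw counts was not used, since the deposited unit is log2. The members and lists were chosen with earlier results of these data known. Named members were up to 5 per direction with the largest called change in each comparison, up to 3 on each side farthest from the members' median, and a set list named whatever its result (stalk genes, Rpsa, paralogs with their parents, Rpl5, Rpl11, Rps6, Rps14, Rps19, Rps19bp1), and of each pathway list up to 3 with the largest called change. Rpl10a, Rpl18 and the further members called in fibroblasts and myeloid cells were named after their values were seen, as were the ranges over cell types. Rps4l was not analysed here, and some members that the naming rule picks are not reported here. Alternatives covered the filter, pseudocount, samples, scaling, voom weights, cell types and each mouse left out. Replicate numbers were not taken to pair mice. Pairing required a correlation of deviations of at least 0.1 in every one of 6 same-numbered pairs of SZN-1326-p and anti-GFP epithelia. The values were 0.39, -0.30 and 0.44 at 24 h and 0.13, 0.07 and 0.32 at 48 h, so -0.30 and 0.07 fell short and the others did not.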

Additional observations from a re-analysis of the deposited data

Results flagged for a closer look

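One value stood apart from its group. The ribosomal protein share of fibroblasts was 10.9% in uninjured mouse 1 at 24 h, against 16%, 15.7% and 15.6% in the other uninjured mice, a gap to the nearest that is large for the range of 4 mice. It is 1 value in 23 groups looked at, and chance flags about 1 in 20. This library belongs to the long-transcript set, and its part in the value was not tested. Without this mouse the number of members called lower in fibroblasts under DSS was 35, against 11 with it.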

How the results depend on the processing

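Counts of members called depended on the settings. For SZN-1326-p in epithelium at 24 h (2 higher), the count was 1 with no filter, 0 with the compared groups alone, 14 with a library term, 34 with totals that leave out ribosomal protein and mitochondrial genes, 30 with voom, 1 without the SZN-1326-p mice 2 (24 h) and 3 (48 h), which have the highest mitochondrial share of their arm, 0 without the long-transcript libraries, in progenitors, in 5 equally weighted types and in TA2 cells (1 anti-GFP mouse at 24 h, as without those libraries), and 1 to 64 leaving out 1 mouse. At 48 h (8 higher) the same settings gave 2, 66, 65, 44, 14, 0 and 64, then 0 in each of the 3 cell type settings, 5 with a pseudocount of 0.1 and 0 to 40 leaving out 1 mouse. For DSS in epithelium (1 lower) they gave 36 with the library term, 0 with the other totals, voom or without those 2 mice, 3 in progenitors, 19 in 5 types, 2 in TA2 cells and 0 to 41 leaving out 1 mouse. The other totals moved the median of all genes in this comparison to 0.21 and that of the members to -0.08. For DSS in fibroblasts (11 lower) the counts were 5 (compared groups), 45 (library term), 5 (other totals), 7 (voom), 17 (CryptFB1 cells) and 0 to 50 leaving out 1 mouse, and for higher members 2 (library term) and 1 (without the long-transcript libraries). For DSS in myeloid cells (8 lower) they were 5, 21, 2 and 1 in the same order, 3 without neutrophils, 14 in macrophages and 2 to 36 leaving out 1 mouse, and for higher members (1) 3 (library term), 2 (other totals), 0 without neutrophils and in macrophages and 1 to 3 leaving out 1 mouse. With the long-minus-short difference as a covariate, 40 members were higher in epithelium at 48 h, 3, 4 and 3 were higher under DSS in epithelium, fibroblasts and myeloid cells, and 5 were lower in myeloid cells. A replicate block, on numbers not taken to pair the mice, gave 31 and 45 calls in epithelium at 24 h and 48 h and 29, 33 and 15 lower members under DSS in epithelium, fibroblasts and myeloid cells. T cells against myeloid cells gave 76 higher and 2 lower with the other totals and 8 and 8 with no replicate block of the mouse. The 4 named genes counted as turned, all with the other totals, were Rplp0 (0.49), Rps19bp1 (0.13), Rps4x (0.56) and Rps9 (0.13). The call in progenitors ran from 69 to 83 over its settings. The epithelial share difference at 48 h was 7.15 percentage points and 4.71 over all UMIs, with 6.21 to 7.83 leaving out 1 mouse. The cause of these shifts was not tested. Settings for the cell types TA2, CryptFB1 and macrophage, without neutrophils, without the long-transcript libraries and with the covariate were chosen after seeing the data. Of the values of named genes under all settings, 8252 were counted as unchanged, 252 gained a call, 212 lost one and 4 turned direction. A turn was counted only where the main fit or the setting called the gene. An uncalled value that changed sign was counted as unchanged. With 2 or 3 mice an arm, and rare members such as Rpl3l at 89 UMIs, small changes were not detectable.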

Other observations

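Neutrophils held the smallest ribosomal protein share of the immune types, and it was higher in SZN-1326-p mice at 48 h (5.09%, 4.93% and 7.98%) than in anti-GFP mice (2.76%, 2.90% and 2.96%), with no overlap. At 24 h it was 3.87%, 5.82% and 4.07% in SZN-1326-p mice and 3.21%, 2.44% and 3.63% in anti-GFP mice. Of these UMIs Rps9 made up 5.27%, 4.07% and 3.96% in SZN-1326-p mice at 48 h, against 6.89%, 7.85% and 5.98% in anti-GFP mice. Rps27, which encodes a zinc finger protein of the small subunit, made up 2.84%, 2.75% and 1.96% in SZN-1326-p mice at 48 h and 4.41%, 3.48% and 4.66% in anti-GFP mice. These values were noticed in the data and were not tested. The whole series held 590 neutrophils. The 48 h values rest on 35, 27 and 38 of them in SZN-1326-p mice and 85, 86 and 39 in anti-GFP mice. Those at 24 h rest on 46, 71 and 39 in SZN-1326-p mice and 22, 73 and 27 in anti-GFP mice.

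In T lymphoid cells the ribosomal protein share was 25.3%, 28.6% and 29.7% in SZN-1326-p mice at 48 h, 24.1%, 20.9% and 17.5% in anti-GFP mice and 24.7% and 23.8% in uninjured mice. At 24 h the arms overlapped, with 15.4%, 26.8% and 24.0% in SZN-1326-p mice and 14.9%, 13.7% and 23.5% in anti-GFP mice. TcellCD8_NK cells, the type of high share, made up 50.0%, 73.5% and 55.6% of T lymphoid cells in SZN-1326-p mice at 48 h and 73.6%, 47.3% and 28.1% in anti-GFP mice, on 27 to 80 cells a mouse, and the rest were Tcell2 cells. In endothelial cells it was 12.0%, 14.2% and 12.9% in SZN-1326-p mice at 48 h, 12.8%, 11.5% and 9.95% in anti-GFP mice and 13.0% and 12.9% in uninjured mice, with overlapping arms.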
